A study of Mus musculus with 71 samples.

Results

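The immunoglobulin constant region genes Ighm, Ighd, Ighg1, Ighg2b, Ighg2c, Ighg3, Igha and Igkc and the joining chain gene Jchain were followed in whole-blood RNA sequencing of mice with hypochlorous acid (HOCl)-induced systemic sclerosis. These 9 genes were picked by symbol from a table of 55416 genes, and all 9 were among the 15211 genes that reached the count minimum for testing. When the genes were chosen, Ighg1 was already known to be higher in HOCl mice and in HOCl + E07 mice than in control mice, so Ighg1 is described without a test in those 2 comparisons. The other genes were taken for their family.

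The data came from 71 separately numbered mice in 6 groups. Control mice numbered 11 and each of the other groups held 12. The control group rests on the sample titles, since the genotype field of these samples reads HOCL, with the treatment given as none. The control, HOCl, E07 and D11 mice were female Balb/c AnNRj animals, 6 weeks old when the injections began. The HOCl mice received HOCl in the skin for 6 weeks and the control mice saline, and the E07 and D11 mice carry the same induction as the HOCl mice. E07 and D11 are antibodies against galectin-3 with an Fc mutated to weaken effector functions, given at 20 mg/kg. These details are taken from the study's methods. The groups HOCl + D06 and HOCl + BPR21 are named in the labels without further description, and they are reported under those names only.

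A B cell makes its heavy chain by joining a variable region to the Ighm and Ighd constant regions, which are spliced from a single long transcript in naive cells. After activation, class switch recombination deletes the DNA in between and brings one of the downstream constant genes next to the variable region, so that the cell makes IgG, IgA or IgE in place of IgM. Igkc encodes the constant region of the kappa light chain, the major light chain in mice, and Jchain encodes the small polypeptide that links IgM and IgA units into polymers and is made by antibody-secreting cells. The 4 IgG subclasses differ in how well they bind Fc receptors and complement, and in mice Ighg1 switching is the one classically driven by interleukin-4.

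On mouse chromosome 12 (GRCm39) the 7 heavy-chain genes lie on the reverse strand in the order in which switching reaches them, from Ighm (113382178 to 113386350) and Ighd (113370224 to 113379944) through Ighg3 (113319844 to 113324852), Ighg1 (113288860 to 113294143), Ighg2b (113266585 to 113271553) and Ighg2c (113248945 to 113252552) to Igha (113218450 to 113223856). Igkc is on chromosome 6 (70703419 to 70703950, forward strand) and Jchain on chromosome 5 (88667668 to 88675750, reverse strand). The hinge is the flexible stretch that joins the antigen-binding arms to the Fc part and whose cysteines hold the heavy chains together. The hinge exons of the 4 IgG genes are shown because 5 of the 6 pairs of genes are least alike there, between 38.8% and 55.6% identical, with the in-frame cysteine codons in capitals. The pair Ighg2b and Ighg2c was 77.3% identical in the hinge and 77.0% in the CH3 exon. Ighg1 has the shortest hinge exon, 39 bases with 4 cysteine codons. The exon is 48 bases with 1 such codon in Ighg3, 66 bases with 4 in Ighg2b and 63 bases with 3 in Ighg2c.
Ighg3 hinge, chr12:113324149-113324196: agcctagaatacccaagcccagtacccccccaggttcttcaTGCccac
Ighg1 hinge, chr12:113293464-113293502: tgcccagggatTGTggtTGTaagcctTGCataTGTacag
Ighg2b hinge, chr12:113270881-113270946: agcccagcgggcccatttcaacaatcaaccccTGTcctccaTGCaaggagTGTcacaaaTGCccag
Ighg2c hinge, chr12:113251883-113251945: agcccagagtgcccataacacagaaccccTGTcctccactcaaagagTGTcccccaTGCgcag

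Among the IgG genes only Ighg2b and Ighg2c are close copies as a whole, but shorter stretches are shared more widely. Ighg3 and Ighg2b share 88 bases in a row in the membrane exon M1. In that exon every pair was between 89.3% and 96.2% identical. Over all coding exons Ighg2b and Ighg2c were 87.7% identical and every other pair was between 76.6% and 78.1% identical, and in the CH2 exon Ighg2b and Ighg2c reached 94.2%. The longest stretch that Ighg2b and Ighg2c share in that exon is 78 bases, and it is shown because no base in it tells these genes apart.
Ighg2b and Ighg2c shared CH2 stretch, chr12:113270489-113270566: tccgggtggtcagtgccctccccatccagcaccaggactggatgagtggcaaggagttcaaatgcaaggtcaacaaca
The reference genome is from the C57BL/6 strain, which carries Ighg2c, whereas BALB/c mice carry the allelic form Ighg2a in its place. Ighg2a had no row in the count table, and counts under Ighg2c, and to a lesser degree under Ighg2b, are therefore uncertain for these mice.

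Total counts ran from 11932855 to 15948972 per mouse, and the scaling factors of the trimmed mean of M-values (TMM) from 0.432 to 1.56. The share of counts on a list of erythroid genes differed between groups, with a median of 8.42% in control mice, 13.5% in HOCl mice, 7.82% with E07, 9.92% with D11, 11.2% with D06 and 10.5% with BPR21. Scaling by total counts alone moved the median over all tested genes, as a log2 fold change, to -0.48 for HOCl against control, 0.48 for E07 against HOCl and -0.57 for D06 against control, whereas under TMM these medians were -0.04, 0.04 and -0.04. Changes are given under TMM, in counts-per-million (CPM) units of the effective library, with total-count values beside the results that they change most and, for all 9 genes, in the plot of the changes. A gene was called when its Benjamini-Hochberg adjusted p over all 15211 genes, from edgeR's quasi-likelihood test, was at most 0.05 and its change at least 1.3-fold. In whole blood, fewer cells of a type and less RNA per cell cannot be told apart.

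The kappa and IgM genes stood far above the IgG genes. Levels per kilobase of exon were scaled by total counts and not by TMM. Their median over all mice was 1746 CPM per kilobase for Igkc, 410 for Ighm, 184 for Ighd, 61.5 for Igha, 30.6 for Jchain, 3.41 for Ighg3, 2.50 for Ighg2b, 2.05 for Ighg1 and 0.583 for Ighg2c. The first 5 places of this order were the same in all 6 groups, and so was the last place. Ighg3, Ighg2b and Ighg1 changed places between groups, and their ranges over mice overlapped in every group. Overlap of ranges does not compare the genes within a mouse, and their order was not tested. Together the 9 genes took a median of 0.294% of all counts in control mice, 0.208% in HOCl mice and 0.355% in HOCl + E07 mice. The spread between control mice, as a coefficient of variation, was 67.8% for Ighg2c, 45.8% for Ighg2b, 43.9% for Jchain, 43.9% for Ighg1, 32.0% for Ighg3, 31.3% for Igha, 29.5% for Ighd, 23.8% for Ighm and 22.0% for Igkc.

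**Figure D1:**
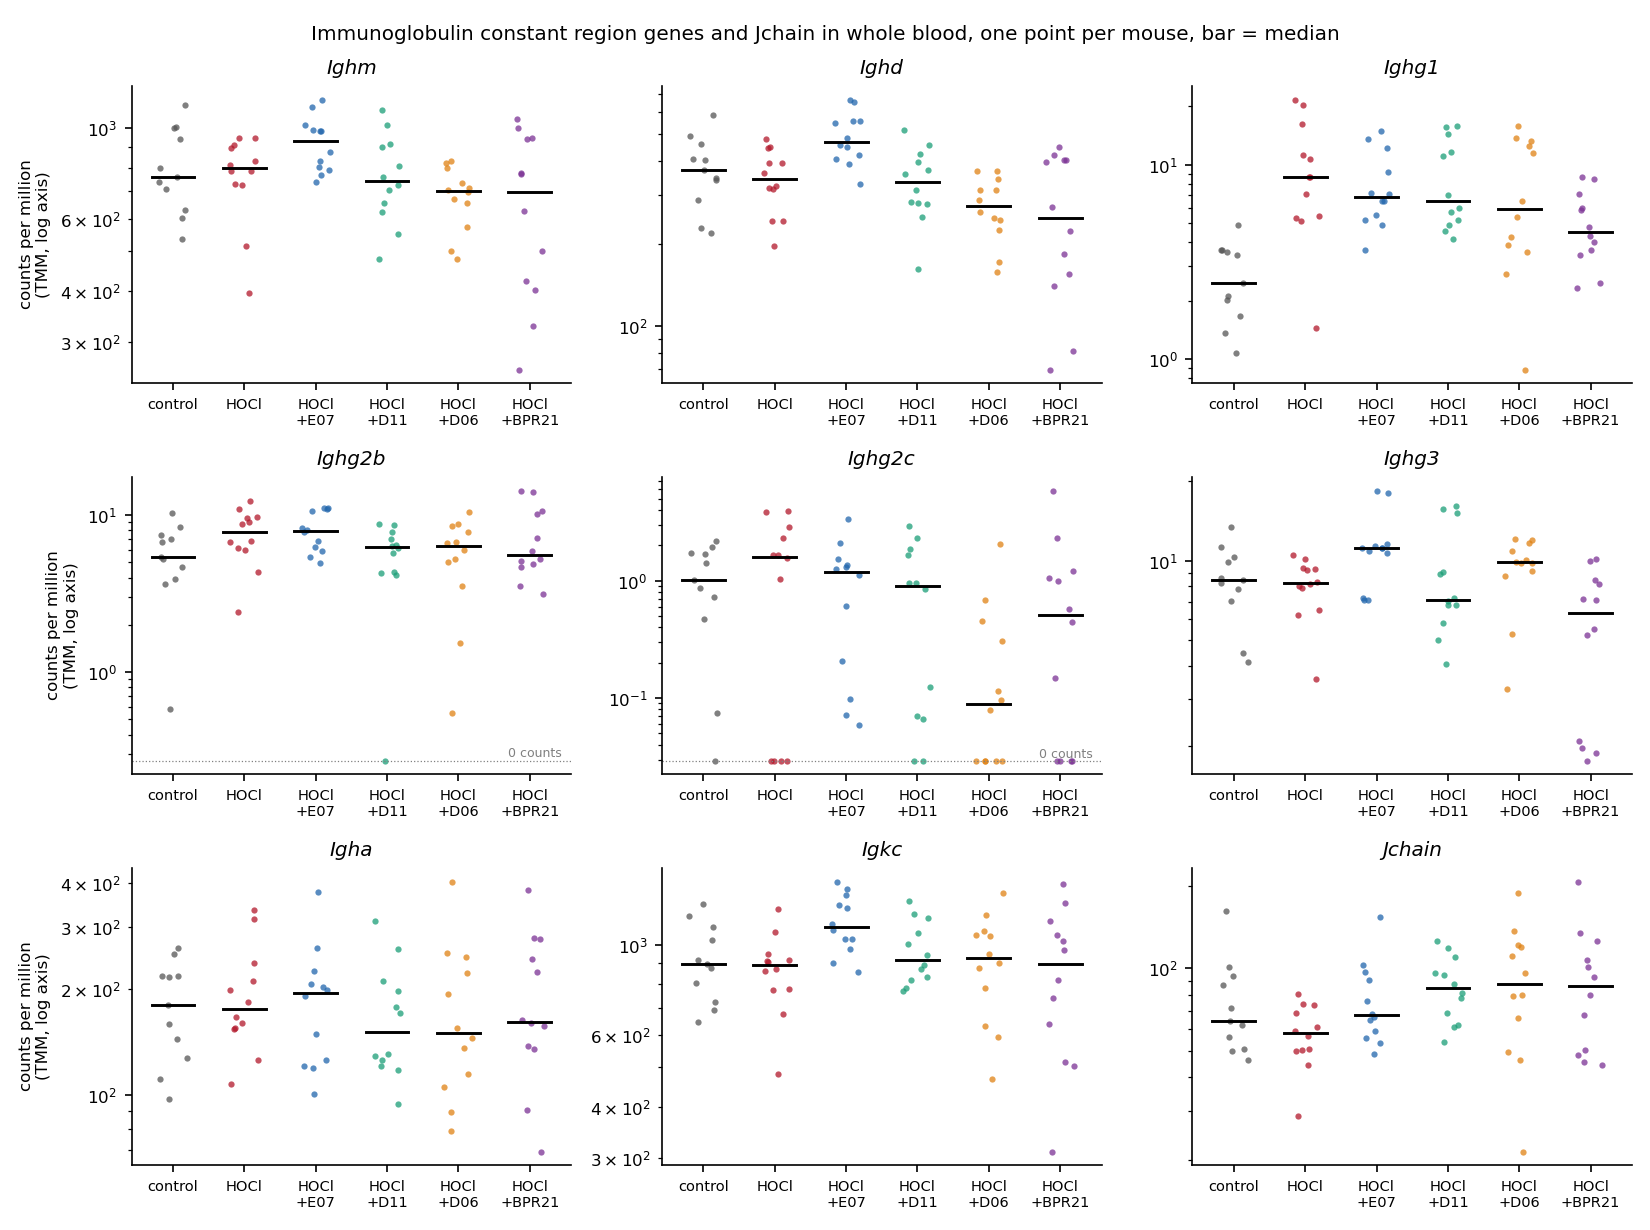
Levels in CPM (TMM, log axis) of each of the 9 genes in the 71 mice, by group, with a bar at the group median and mice with 0 counts on a dotted line. The Ighg1 points of the HOCl groups lie mostly above those of control mice, whose highest value was 4.89, and the Ighd points are highest with E07.

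Ighg1, the constant region of IgG1, was higher in the HOCl mice than in the control mice. Its level in control mice was 1.07 at the lowest, 2.46 at the median and 4.89 CPM at the highest, which corresponds to between 11 and 81 counts a mouse. In HOCl mice it ran from 1.44 through a median of 8.69 to 21.7 CPM. The highest HOCl value, in HOCl mouse 1, rested on 391 counts, and 11 of 12 HOCl mice lay above the highest control mouse. The mean was 10.2 ± 6.29 CPM (SD, n = 12) against 2.72 ± 1.19 (SD, n = 11) in the control group, and the log2 fold change was 1.89 ± 0.33 (SE). For E07 mice the lowest, median and highest levels were 3.64, 6.80 and 14.9 CPM, and 10 of 12 mice were above every control mouse, with a log2 fold change against control of 1.56 ± 0.26 (SE). These are the values for which the gene was chosen, and they are given as a description.

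The Ighg1 values of the D11, D06 and BPR21 mice were not part of that choice. Those of the 11 control mice were, so tests against the control mice are not free of it. With D11, Ighg1 was at 4.15 CPM at the lowest, 6.50 at the median and 15.9 at the highest, and 10 of 12 mice exceeded the highest control. It was called higher than in control mice, by a log2 fold change of 1.71 ± 0.29 (SE, adjusted p = 0.0121), and it was the only one of the 9 genes called in this comparison, in which 0.0526% of all genes were called. With D06 the level ran from 0.883 through 5.93 to 15.8 CPM, 7 of 12 mice exceeded the highest control and 1 lay below the lowest. Ighg1 was again the only one of the 9 called against control, by 1.52 ± 0.36 (SE, adjusted p = 0.00934), where 7.30% of all genes were called and 6.11% called higher. That call was lost when the erythroid share was added to the model (1.27 ± 0.42, adjusted p = 0.132). With BPR21 the values were 2.32, 4.53 and 8.65 CPM, and the log2 fold change of 0.91 ± 0.28 (SE) missed the threshold with an adjusted p of 0.0863. By edgeR 0 of the 9 were called between BPR21 and control mice, where 1.48% of all genes were, and DESeq2 called Ighg1 alone, beside 3.31% of all genes higher. Ighg1 was also the only one of the 9 with an unadjusted p under 0.05, which 2469 of all genes had. The BPR21 mice and the control mice overlapped, with 5 of 12 above the highest control. Under total-count scaling the log2 fold changes against control were 1.39 with D11 (adjusted p = 0.0309), 0.95 with D06 (adjusted p = 0.0317) and 0.58 with BPR21 (adjusted p = 0.199), where that scaling called 0.342% of all genes higher with D11 and 2.74% with D06.

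Between treated and untreated HOCl mice edgeR made no call for Ighg1. The Ighg1 values of the HOCl mice were among those for which the gene was chosen, so these tests are not free of that choice. The log2 fold change against HOCl was -0.33 ± 0.30 (SE) with E07, where total-count scaling turned it to 0.07, and it was -0.20 ± 0.31 with D11 and -0.39 ± 0.37 with D06. For E07 the 95% interval ran from -0.91 to 0.25 and for D11 from -0.82 to 0.41, so a moderate fall and a slight rise both lie inside these intervals. BPR21 had the lowest levels of the treated groups, at -0.99 ± 0.31 (SE) against HOCl, with 0 of 12 mice above the HOCl median and an adjusted p of 0.148. DESeq2 called that difference (adjusted p = 0.0482). By edgeR 0 of the 9 genes were called against HOCl with D11, D06 or BPR21, in comparisons where 0.184%, 0.0855% and 0.460% of all genes were called. An unadjusted p under 0.05 was reached by 1, 3 and 2 of the 9, and by 1783, 1810 and 1858 of all 15211 genes. DESeq2 called 1, 0 and 1. It called 0.652% of all genes higher with D11 and 1.33% lower with BPR21.

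Set against the other IgG genes of the same mouse, a measure that no scaling affects, Ighg1 took a median of 14.8% of IgG counts in control mice, with a range from 5.05% to 28.0%. Ighg2a had no row and Ighg2c counts are uncertain in these mice, so the shares are of the 4 counted genes and not of all IgG. The median share was 33.7% in HOCl mice, 26.2% with E07, 36.3% with D11, 31.7% with D06 and 29.8% with BPR21. The highest share, 64.0%, was in an HOCl mouse, and the lowest in HOCl mice was 8.47%, so the groups overlapped. The share of Ighg3, which led the IgG counts of control mice at a median of 46.6%, was between 30.8% and 39.4% at the median in the HOCl groups. The 4 shares of a mouse sum to a whole, so a higher share of one lowers the others. The 4 counted IgG genes together were a median of 1.42% of the counted heavy-chain constant reads in control mice and 2.20% in HOCl mice.

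**Figure D2:**
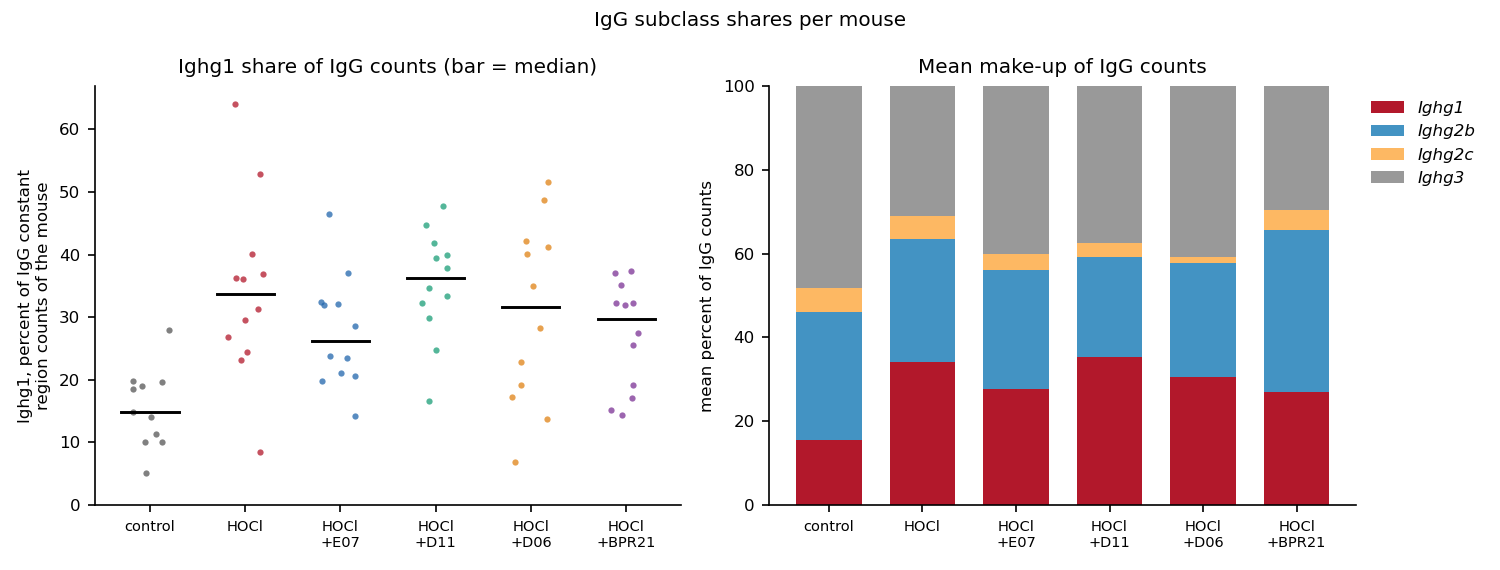
Left, Ighg1 as a percentage of the 4 IgG constant region genes' counts in each mouse, with a bar at the group median. Right, mean percentage of each IgG gene by group. The control median was 14.8%, and the medians of the 5 HOCl groups lay between 26.2% and 36.3%.

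No other IgG gene was called in any of the 9 comparisons. Ighg2b, which encodes a complement-fixing subclass, had a median of 5.39 CPM in control mice and 7.84 in HOCl mice, and its log2 fold change of 0.41 ± 0.28 (SE, adjusted p = 0.549) turned to -0.10 under total-count scaling. It was not counted at all in 1 D11 mouse, while the other 11 mice of that group had up to 8.84 CPM. Ighg3, the subclass made mostly against carbohydrate antigens, ran from 7.09 through 11.2 to 18.4 CPM with E07 and from 3.57 through 8.26 to 10.5 CPM in HOCl mice. Although 9 of 12 E07 mice lay above the highest HOCl mouse, its log2 fold change of 0.50 ± 0.17 (SE) had an adjusted p of 0.0596. Total-count scaling (0.97, adjusted p = 0.000314) called it. Ighg2c was absent from 16 of 71 mice. It had 0 counts in 1 control mouse, 4 HOCl mice, 2 D11 mice, 5 D06 mice and 4 BPR21 mice and in none of the E07 mice, and its median was 18 counts in control mice and 1 count with D06. For D06 against control the log2 fold change of -1.76 ± 0.86 (SE) had an adjusted p of 0.249, and total-count scaling called it lower (-2.31, adjusted p = 0.0309). A count of 0 in a library allows up to 3 counts, so a low level of Ighg2c in those libraries was not detectable at this depth, and the strain difference above applies to these values. IgE, the remaining switched class, was nearly uncounted, with 0 Ighe counts in 41 of 71 mice and at most 39 in the others.

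Ighd and Igkc were called higher in E07-treated than in untreated HOCl mice, and they were the 2 of 9 genes called there, against 8.13% of all genes called and 2.26% called higher. Ighd, the IgD heavy chain of mature naive B cells, was at 330, 469 and 668 CPM at the lowest, median and highest with E07 and at 196, 343 and 480 CPM in HOCl mice. Every HOCl mouse was exceeded by 6 of the 12 E07 mice, and 11 of 12 were above the HOCl median. The log2 fold change was 0.52 ± 0.14 (SE, adjusted p = 0.0113). Igkc ran from 855 through 1102 to 1428 CPM with E07 and from 481 through 890 to 1221 CPM in HOCl mice, a log2 fold change of 0.40 ± 0.12 (SE, adjusted p = 0.0256), which is only just past the 1.3-fold limit. DESeq2 put it at 0.36 (adjusted p = 0.0161), below that limit, and its call was also lost without HOCl mouse 3 (0.37), 6 (0.38), 7 (0.35) or 12 (0.33). Fitted together with the other groups, neither Ighd (0.51, adjusted p = 0.117) nor Igkc (0.38, adjusted p = 0.129) was called. Ighm, the IgM heavy chain, was at a median of 927 CPM with E07 and 798 in HOCl mice, and its difference of 0.27 ± 0.12 (SE) was not called (adjusted p = 0.164). Total-count scaling called 5 of the 9 and 39.5% of all genes higher, the 5 being Ighg3, Ighm (0.70), Ighd (0.96), Igkc (0.83) and Jchain (0.88). Adding the erythroid share to the model left neither Ighd (0.27, adjusted p = 0.971) nor Igkc (0.29, adjusted p = 0.969) called in this comparison, in which the erythroid share was 5.54% to 11.1% in E07 mice and 9.23% to 20.7% in HOCl mice.

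Genes of the B cell list moved in the same comparison. Of its 23 tested genes 13 were called higher and none lower with E07 against HOCl, with a median log2 fold change of 0.49 beside 0.04 for all genes. Total-count scaling called 22 of the 23 higher (median 0.93 beside 0.48 for all genes). With the erythroid share in the model edgeR called 0 of all 15211 genes in this comparison, the B cell genes included, and 759 had an unadjusted p under 0.05. The largest changes were in Tnfrsf13c, the receptor for the survival factor BAFF (0.74, adjusted p = 0.000158), Ms4a1, which encodes CD20 (0.65), and Fcrla (0.65). Of the 5 other constant region genes tested, the lambda light chain genes Iglc2 (0.71), Iglc3 (0.68) and Iglc1 (0.50) were called higher. Kappa was a median of 78.8% of light chain counts with E07 beside 80.7% in HOCl mice. Ighd per Ighm count was at a median of 0.541 with E07 and 0.473 in HOCl mice, with overlapping ranges from 0.398 to 0.656 and from 0.270 to 0.615. On the immature B cell list Cd24a, a surface protein that red cell precursors also carry in large amounts, fell by 1.34, while the erythroid list fell with it (27 of 29 genes called lower).

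**Figure D3:**
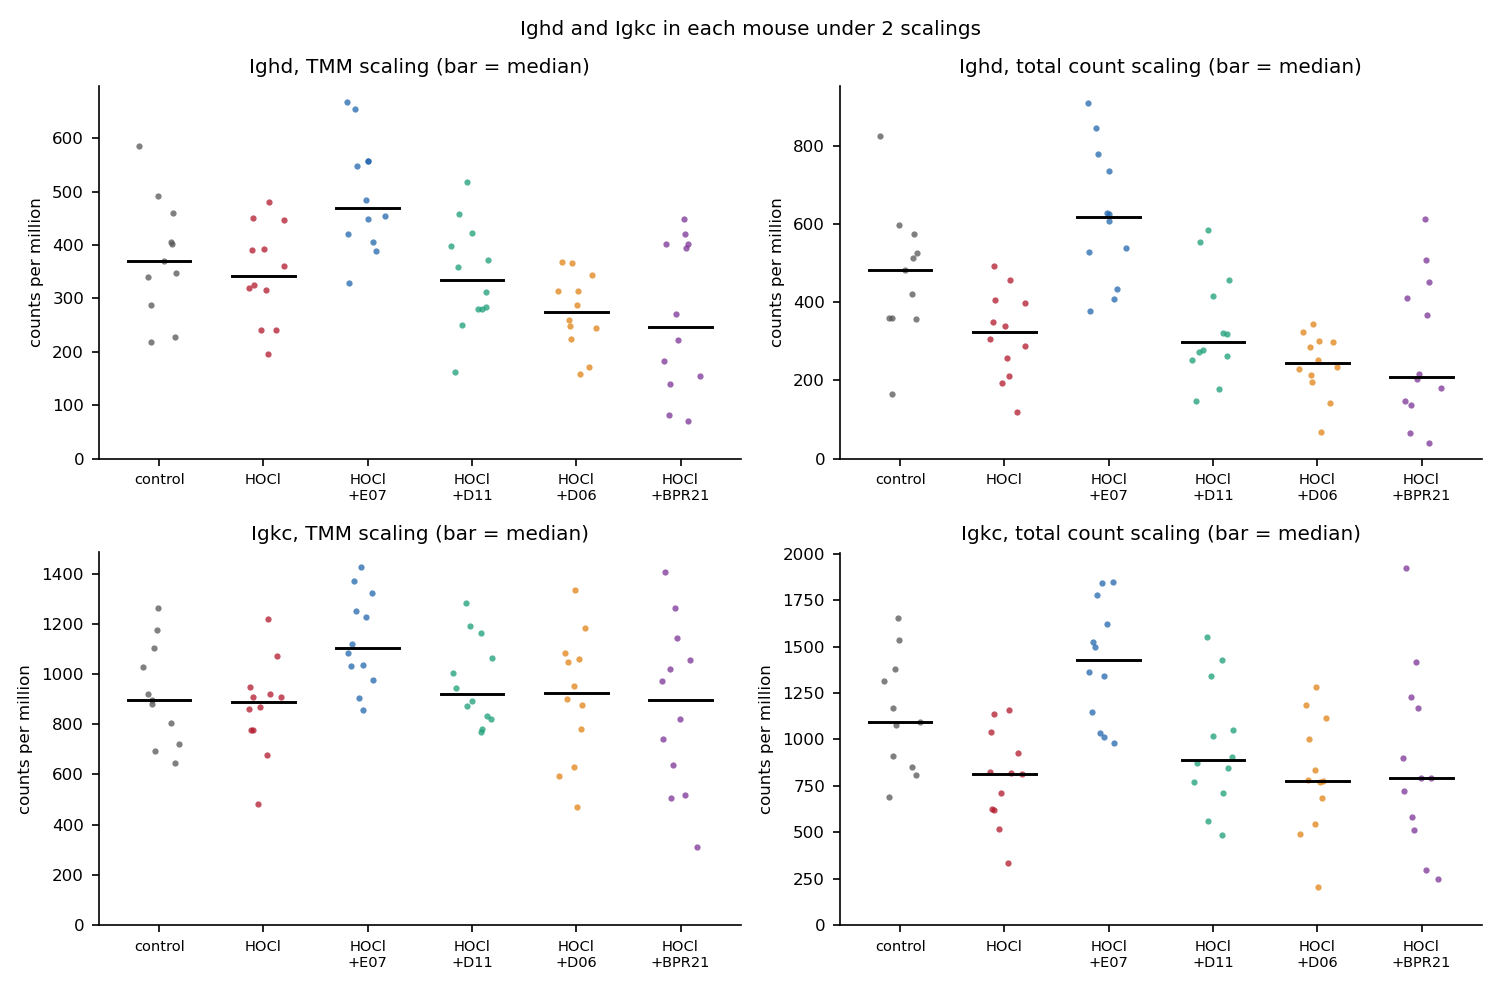
Levels in CPM of Ighd and Igkc in each mouse by group, under TMM scaling on the left and total-count scaling on the right, with a bar at the group median. HOCl + E07 has the highest median in all 4 panels, and the gap to HOCl mice is wider under total-count scaling.

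Between HOCl and control mice 0 of the other 8 genes were called by edgeR or by DESeq2, where 3.71% of all genes were called by edgeR, and 1 of the 8 had an unadjusted p under 0.05, as had 2329 of all genes. The median Ighd level was 343 CPM in HOCl and 370 CPM in control mice, that of Ighm 798 and 760, and that of Igkc 890 and 897. Jchain had the lowest unadjusted p of these, with a log2 fold change of -0.41 ± 0.18 (SE, adjusted p = 0.258) and levels from 28.8 through 58.0 to 80.4 CPM in HOCl mice against 46.1 through 64.1 to 162 CPM in control mice. Under total-count scaling 4 of the 8 were called lower, against 31.6% of all genes, Jchain by -0.77, Ighd by -0.57, Igkc by -0.51 and Ighm by -0.50 beside the shift of -0.48 in the median of all genes, which Jchain exceeded the most. The B cell list had 0 of 23 genes called by edgeR at a median of -0.15 under TMM, with 3 at an unadjusted p under 0.05, and 16 called lower at a median of -0.58 under total-count scaling, and the erythroid list had 25 of 29 called higher under TMM and 23 under total-count scaling. In the comparison of E07-treated with control mice, where 0.0855% of all genes were called, 0 of the other 8 genes were called by edgeR or by DESeq2, and 3 had an unadjusted p under 0.05, as had 964 of all genes. Ighd was the farthest apart in it by unadjusted p, at 0.39 ± 0.14 (SE, adjusted p = 0.523).

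**Figure D4:**
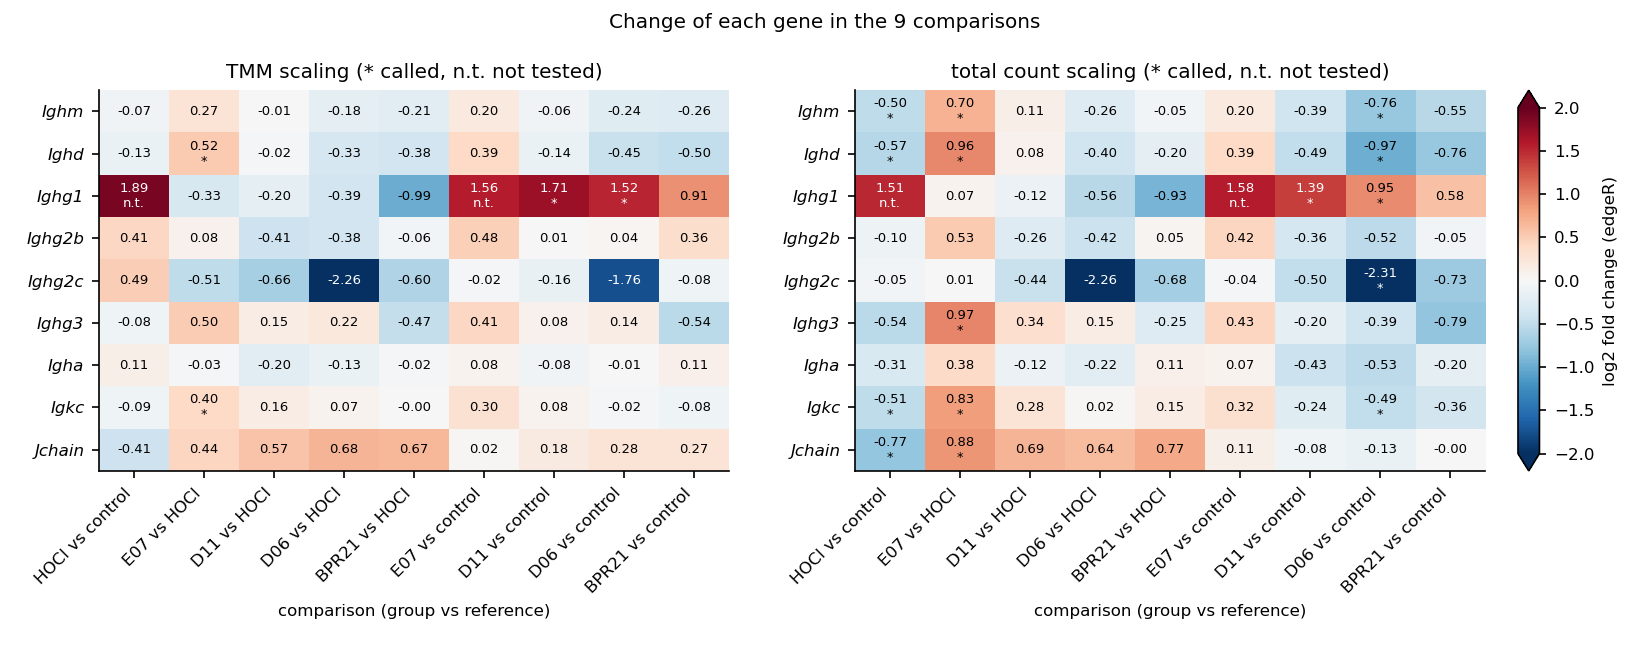
Log2 fold change of each of the 9 genes in the 9 comparisons, under TMM scaling on the left and total-count scaling on the right, with an asterisk on called values and n.t. where no test was made. Under TMM the called values are Ighd and Igkc for E07 against HOCl and Ighg1 for D11 and D06 against control.

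Across the 4 treated groups alone, an F test that uses neither control nor untreated HOCl mice called 1 of the 9 genes, against 8.62% of all genes at an adjusted p of at most 0.05. This was Ighd (F = 7.87, adjusted p = 0.00754). Its mean was 493 ± 105 CPM with E07, 341 ± 99.0 with D11, 275 ± 69.8 with D06 and 266 ± 142 with BPR21 (SD, n = 12 each). The lowest E07 mouse, at 330 CPM, was above the median of the D06 and BPR21 mice, and the D06 range from 158 to 368 CPM lay inside that of BPR21, from 69.7 to 449 CPM. Ighg3 came next, with means of 11.3, 8.97, 9.40 and 5.79 CPM in the same order (adjusted p = 0.0627), followed by Ighm (923, 770, 681 and 668 CPM, adjusted p = 0.142). Of the B cell list 11 of 23 genes differed among the treated groups, and of the erythroid list 27 of 29. With the erythroid share in the model Ighd no longer passed (adjusted p = 0.218). In D06 mice against control, Ighd was at -0.45 ± 0.16 (SE, adjusted p = 0.0862), with 0 of 12 D06 mice above the control median, and it was called without control mouse 12 (-0.52, adjusted p = 0.0246). On the B cell list Bank1, a signalling adaptor, and Cd180 were called lower there, by -0.49 and -0.51. Total-count scaling called Ighd (-0.97), Ighm (-0.76), Igkc (-0.49) and all 23 B cell genes lower, as it did 41.6% of all genes, beside the shift of -0.57 in their median.

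Igha, the IgA heavy chain of mucosal antibody, was not called in any comparison, and its log2 fold changes lay between -0.20 and 0.11. Under total-count scaling they lay between -0.53 (D06 against control) and 0.38 (E07 against HOCl), and the direction turned for HOCl against control (-0.31), E07 against HOCl, BPR21 against HOCl (0.11) and BPR21 against control (-0.20). Its median was 181 CPM in control mice and between 150 and 195 CPM in the HOCl groups, with single mice as high as 404 CPM with D06 and 383 CPM with BPR21. Jchain was higher in all 4 treated groups than in HOCl mice without being called in any. The log2 fold change was 0.44 ± 0.16 (SE) with E07, 0.57 ± 0.15 with D11, 0.68 ± 0.22 with D06 and 0.67 ± 0.21 with BPR21, and the adjusted p-values were 0.0869, 0.0876, 0.162 and 0.162. The 4 comparisons share the 12 HOCl mice. Medians were 58.0 CPM in HOCl mice and 67.3, 84.7, 87.9 and 86.3 CPM in those groups, and 7 of 12 D11 mice were above the highest HOCl mouse. DESeq2 called the D11 difference (0.56, adjusted p = 0.0206). Against control mice the Jchain differences were 0.02, 0.18, 0.28 and 0.27 in the same order, and total-count scaling made those of D11, D06 and BPR21 slightly negative.

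Few genes of the plasma cell list were called under TMM. Of its 21 tested genes 2 were called higher with E07 against HOCl, namely Tnfrsf13b, the receptor TACI (0.47, adjusted p = 0.00118), and the disulfide isomerase Txndc5 (0.43). With D06 against control 1 was called higher, the signal peptidase subunit Sec11c (0.52, adjusted p = 0.00429), which total-count scaling brought to 0.02. With BPR21 against HOCl the stress-response gene Trp53inp1 (0.44, adjusted p = 0.0487) was called higher, a call that total-count scaling lost (0.51, adjusted p = 0.307). Under TMM edgeR called none in the other 6 comparisons, in which 2 to 5 genes had an unadjusted p under 0.05. Over all genes, edgeR under TMM called 2.26% higher with E07 against HOCl and 6.11% higher with D06 against control. It called 0.46% in either direction with BPR21 against HOCl. Total-count scaling called 14 of the 21 higher with E07 against HOCl, where it called 39.5% of all genes higher. It called 13 lower in HOCl against control mice and 11 lower with D06 against control. Of all genes it called 31.6% and 41.6% lower in these 2 comparisons. The class switching list holds 16 genes for the enzymes, repair factors and transcription factors of the switch. With E07 against HOCl, Xrcc6 (0.40, adjusted p = 0.0452) was called higher and Shld1 (-0.64, adjusted p = 0.0251) lower. Total-count scaling put Shld1 at -0.14 and did not call it, while it called 9 of the 16 higher. With D06 against control, Trp53bp1 (-0.58, adjusted p = 0.022) was called lower. Trp53bp1 was at -1.11 under total-count scaling, beside the shift of -0.57 in the median of all genes. Under TMM edgeR called 8.13% of all genes with E07 against HOCl and 7.3% with D06 against control. Cd24a rose on the immature B cell list in HOCl mice (1.09) and in D06 mice (1.20) against control, in the same comparisons in which 25 and 27 of the 29 erythroid genes rose.

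Reads of variable genes give a view of the same cells from outside the constant regions. A mouse had between 305 and 3093 Ighv counts and between 1313 and 14801 Igkv counts. The leading gene of all mice was Ighv9-3 among heavy-chain variable genes, with 5.58% of Ighv counts, and Igkv10-96 among kappa variable genes, with 4.53% of Igkv counts. In single mice the leading gene, whichever it was, took between 5.08% and 14.5% of Ighv counts and between 3.84% and 12.2% of Igkv counts. No single gene therefore took most of the counted variable reads in any mouse. The strain difference above applies to these counts as well, so the shares describe counted reads and do not measure dominance in the mice. Of 27 permutation tests (two-sided, 100000 resamples), over summed Ighv and both leading shares in the 9 comparisons, none passed after adjustment (lowest adjusted p = 0.673). The log2 sum of Ighv CPM was 6.78 ± 0.33 (SD) with E07 and 6.52 ± 0.27 in HOCl mice, a difference of 0.26 (permutation p = 0.0445), with 9 of 12 E07 mice above the middle of the HOCl group. The leading Ighv share was 6.91 ± 0.96% with E07 and 8.24 ± 2.00% in HOCl mice (permutation p = 0.0498). Under total-count scaling the summed Ighv differences were 0.74 for E07 against HOCl (adjusted permutation p = 0.00738) and -0.80 for D06 against control (adjusted permutation p = 0.0134).

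Over the 71 mice, after removal of the group means, the genes fell into members that followed B cell genes and members that did not. This is a description over mice that share library preparation and scaling. Ighm was most like Cd79b and Cd79a, the signalling chains of the B cell receptor (Spearman rho 0.92 and 0.91), and Ifi30 (0.90). Ighd was most like Cd22 (0.93), Cd74 (0.93) and H2-Ab1 (0.93), an inhibitory co-receptor and members of the MHC class II pathway, and Igkc like Cd79b (0.90), Cd79a (0.87) and Ighm (0.86). Of the IgG genes, Ighg3 alone came near such genes, with Bank1 at 0.59, Cd74 at 0.58 and Scd1 at 0.58. Ighg1 had no partner above 0.47 (Nop9 0.47, Prkcb 0.46 and Stat5a 0.45), and its rho with Cd79a was 0.23. Ighg2b (Trub1 0.49, Zfp113 0.47 and Pus7l 0.45) and Ighg2c (Lsm7 0.44, Ercc6l 0.42 and Slc22a21 0.39) were as loosely tied. Sampling error adds to the spread of Ighg1, Ighg2b and Ighg2c. It is largest for Ighg2c, at a median of 18 counts in control mice and 1 with D06. Igha and Jchain were each other's near partners at 0.55. Igha was followed by Supt5 (0.54) and Upf1 (0.53), and Jchain was led by AW112010 (0.62) and had Psip1 at 0.53. Jchain also had a rho of 0.41 with Igkc, 0.35 with the plasma cell gene Mzb1, 0.31 with Ms4a1, 0.08 with Cd79a and 0.01 with the plasma cell marker Sdc1. For Igha these were 0.43 with Igkc, 0.13 with Mzb1, 0.0053 with Ms4a1, 0.13 with Cd79a and 0.24 with Sdc1.

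**Figure D5:**
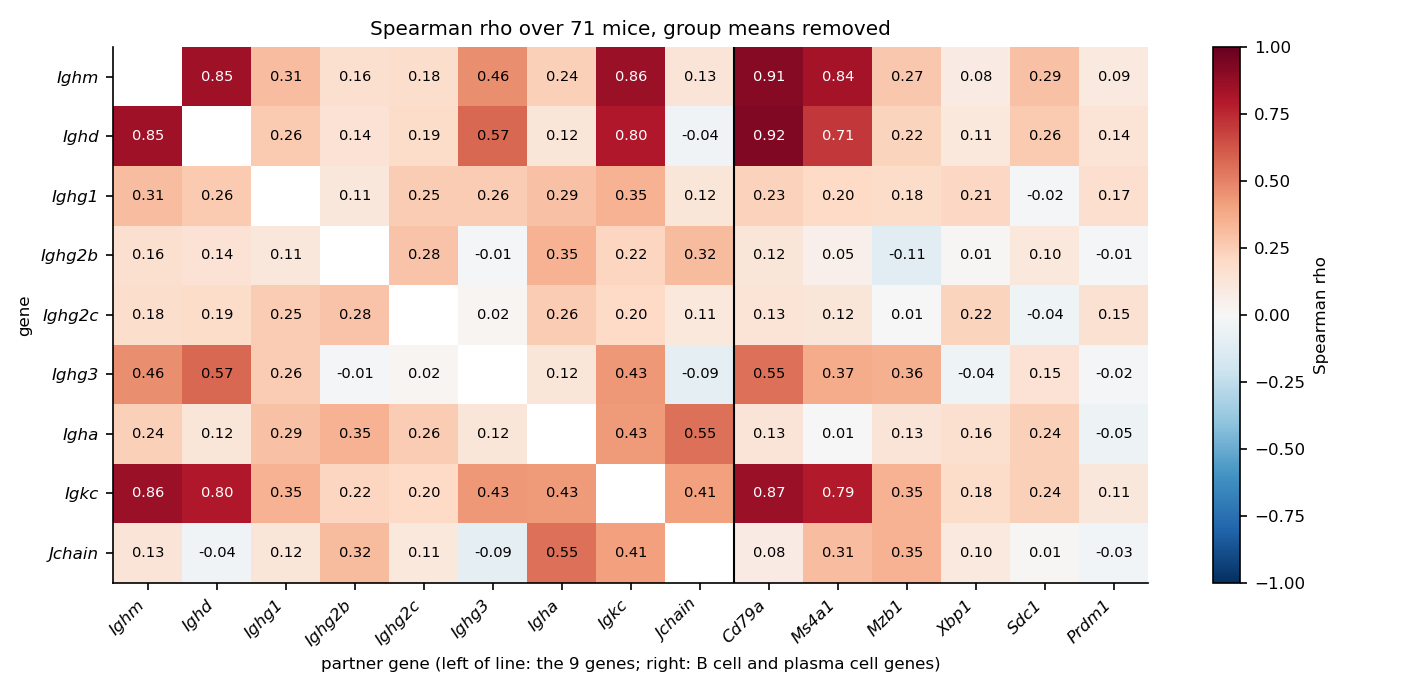
Spearman rho of each of the 9 genes (rows) with the others and with B cell and plasma cell genes (columns), over 71 mice on log2 CPM with group means removed. Ighm, Ighd and Igkc form a block with Cd79a and Ms4a1, while the highest value of Igha and of Jchain in the plot is the one they share (0.55).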

How the data were processed

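Per the labels, RNA from whole blood went into strand-specific libraries with poly(A) selection and globin depletion, and the submitters' processing notes name cutadapt, STAR, featureCounts, DESeq2 and the build mm39. The annotation release is not given in the sources used here. The authors deposited raw counts per gene for 71 mice and variance-stabilised log2 values for 70 of them and 10508 genes, all 9 members included. The counts were tested as deposited with edgeR 4.0.16 (TMM, quasi-likelihood, 2 groups a fit, genes with at least 10 counts in at least 11 mice). Limma 3.58.1 on the deposited log2 values, which is the study's own method, and DESeq2 1.42.0 were alternatives. The edgeR tests, DESeq2, limma on log2 CPM and the permutation test were tried on simulated data first. The limma fit to the deposited log2 values was not, nor were the models with the erythroid share or with mice blocked by replicate number. Levels per kilobase used exon lengths of GENCODE vM39, whose genome (GRCm39) gave the sequences. The members and gene lists were chosen with earlier results of these data known. Named genes were the members, in each comparison the 3 genes of each B cell-related list with the largest change among those called, the leading variable genes, and each member's 3 most alike genes. No 2 mice had identical counts. Precision covers counting error and the spread between mice. The study's methods give separate cages for the experimental and control groups, so effects of cage and of group cannot be told apart.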

Additional observations from a re-analysis of the deposited data

How the results depend on the processing

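Each change was recomputed for Ighg1 and for every gene at or past the 1.3-fold limit. The erythroid share in the model, total-count scaling and DESeq2 moved the most calls, and the cause was not tested. For E07 against HOCl the 2 called genes became 1 with DESeq2 size factors and with DESeq2, where Igkc was at 0.36, 5 under total counts, 0 by edgeR with 6 groups in 1 fit (3 at an unadjusted p under 0.05), 0 by edgeR with the erythroid share (1 so), and 3 with the replicate block, which added Ighg3 (0.48, adjusted p = 0.0477). The limma fit and the other filters left 2. For HOCl against control 0 of 8 became 4 under total counts. For D06 against control the 1 call became 5 under total counts and 0 by edgeR with the erythroid share (2 at an unadjusted p under 0.05). DESeq2 added 1 call each for D11 against HOCl, BPR21 against HOCl and BPR21 against control (Ighg1, 0.93, adjusted p = 0.0267). Among the treated groups the 1 gene became 4 under total counts, 2 with no filter, 2 with DESeq2 and 2 with 6 groups in 1 fit, the second being Ighg3 in these 3, and 0 with the erythroid share (2 at an unadjusted p under 0.05). Of the variable gene tests 2 passed under total counts in place of 0, and a minimum of 200 counts left no mouse out.

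Directions turned in genes that were not called. Under total counts Ighg2b (-0.10) and Ighg2c (-0.0545) turned for HOCl against control, and Ighg1 (0.0719) and Ighg2c (0.0108) for E07 against HOCl. Ighg2c also turned for HOCl against control under limma (-0.0197) and the replicate block (-0.0203), for E07 against HOCl under limma (0.00307), and for BPR21 against HOCl with the erythroid share (0.0735). Limma brought Ighg1 to 0.76 for HOCl and 0.67 for E07 against control on the compressed log2 scale of the deposited values. Leaving out 1 HOCl mouse at a time gave 1 to 2 called genes for E07 against HOCl, as Igkc was lost without HOCl mouse 3, 6, 7 or 12 (adjusted p between 0.0410 and 0.0504). Leaving out 1 control mouse at a time gave 1 to 2 for D06 against control, as Ighd was added without control mouse 12. The number was always 1 for D11 against control. Treated mice were not left out in turn, so dependence on a single treated mouse was not tested.

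Counts over all genes ranged more widely. They were 564 for HOCl against control (5165 under total counts, 362 with the block), 1236 for E07 against HOCl (6386 and 1145), 1110 for D06 against control (6744 and 1051), 225 for BPR21 against control (273 and 459) and 1311 among the treated groups (5267 and 930). With the erythroid share they were 0 (807 at an unadjusted p under 0.05, 719 by DESeq2 without it), 0 (759, 1421), 92, 53 and 43 in this order. The counts of 28, 13 and 70 for D11, D06 and BPR21 against HOCl and of 13 and 8 for E07 and D11 against control ranged from 5 to 148, 4 to 330, 13 to 267, 0 (6 groups in 1 fit, 514 at an unadjusted p under 0.05) to 34 and 6 to 567. Without 1 control mouse the count for D11 against control ranged from 3 to 857. Mice of the same number deviated together little, with a mean r between 0.005 and 0.044. For mice of different numbers the mean r was between -0.003 and 0.0003. Of the 11 or 12 pairs 1 to 3 were over 0.1, and 1 to 4 mice were closest to their own number. The main tests used numbers only as names of mice. The block changed no call of the 9 genes beyond that of Ighg3, but it took D11 against control from 8 to 103 genes called. Depth limits the IgG genes, since Ighg2c stood at a median of 1 count with D06.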
